A study of Mus musculus with 8 samples.

Results

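The cytokine genes followed here are Il6, Lif, Csf1, Csf3, Il15, Il15ra, Il7, Il33 and Il1b, measured in single endothelial cells (ECs) of mouse mammary tumors. They were chosen by name: 9 of the 20408 genes in the 8 deposited libraries, read in the cells that held at least 1 transcript of the endothelial gene Pecam1 and none of the leukocyte gene Ptprc. This gate kept 6994 of 8204 cells. Tumors were either spontaneous, in 9-week-old MMTV-PyMT females, in which the mouse mammary tumor virus promoter drives the polyoma middle T oncogene in mammary epithelium, or implanted, grown from cells of MMTV-PyMT tumors cultured for 2 days and placed in the mammary fat pad of females aged 8 to 9 weeks (FVB mice in the methods). Each tumor was injected with PBS or with 14 µg of 3'3'-cGAMP, a cyclic dinucleotide that activates STING, an adaptor of cytosolic DNA sensing, in 70 µl, and live CD45-/CD31+ cells were sorted 3 h later. There were 2 libraries in each of the 4 groups, from 2 mice per group. The sources do not say outright that each library is 1 mouse, so p-values measure the spread between libraries. The labels give the strain as c57bl/6 whereas the methods describe FVB animals, which was not settled here.

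Cytokines are secreted or membrane-bound signals that act through receptors on neighbouring cells. Il6 and Lif encode ligands that share the signal transducer gp130. Csf1 and Csf3 encode the growth factors for macrophages and for neutrophils. Il15 is presented to natural killer and T cells by its own receptor chain, the product of Il15ra, and Il7 is the survival factor of naive T cells. Il33 and Il1b belong to the IL-1 family, whose members act through Il1rl1 and Il1r1 respectively. Many of these genes respond to NF-kB or to interferon regulatory factors (IRF), which lie downstream of STING.

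Promoter sequences from RefSeq (GRCm38.p6, the build of the files, from 250 bases before to 50 bases after the transcription start) were at hand for 6 of the 9 genes, Il15ra and Il33 having 2 each, whereas Il15, Il7 and Csf3 had no entry. They are shown for 3 genes whose levels rose after cGAMP in implanted tumors, 2 with a match to the NF-kB consensus motif and 1 with a match to the IRF core AANNGAAA, searched on both strands. Capitals mark those matches.

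Il6, chr5:30012864-30013163, + strand: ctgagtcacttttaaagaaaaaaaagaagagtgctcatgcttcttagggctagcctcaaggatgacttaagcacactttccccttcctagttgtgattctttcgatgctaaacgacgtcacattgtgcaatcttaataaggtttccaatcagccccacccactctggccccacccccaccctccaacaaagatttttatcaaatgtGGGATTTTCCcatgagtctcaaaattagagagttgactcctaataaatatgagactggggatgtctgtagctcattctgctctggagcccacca
Csf1, chr3:107760420-107760719, - strand: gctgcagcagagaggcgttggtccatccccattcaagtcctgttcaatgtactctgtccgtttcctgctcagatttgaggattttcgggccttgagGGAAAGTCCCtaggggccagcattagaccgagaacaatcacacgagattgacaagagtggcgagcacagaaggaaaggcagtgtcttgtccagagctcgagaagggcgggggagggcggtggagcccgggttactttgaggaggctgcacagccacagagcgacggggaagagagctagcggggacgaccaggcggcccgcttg
Il15ra, chr2:11705462-11705761, + strand: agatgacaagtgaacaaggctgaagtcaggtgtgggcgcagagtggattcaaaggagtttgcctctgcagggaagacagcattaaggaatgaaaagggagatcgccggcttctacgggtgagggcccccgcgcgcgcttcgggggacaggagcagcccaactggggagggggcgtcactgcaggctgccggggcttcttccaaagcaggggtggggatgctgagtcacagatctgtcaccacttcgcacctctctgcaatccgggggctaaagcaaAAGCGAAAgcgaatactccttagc

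The NF-kB match began 44 bases before the start in Il6, 154 bases before it in Csf1 and 178 bases before it in Lif, and 8.46% of all 32851 promoters held one. The match in the printed Il15ra promoter, the second of 2 start sites, began 27 bases after the start. The IRF core was found in Il15ra (both entries), Il1b and 1 of the entries of Il33, against 23.9% of all promoters. The AP-1 motif TGANTCA was found in Il6, Lif and 1 entry of Il15ra, against 7.81%, and the longer interferon element GAAANNGAAA, which contains the IRF core, in none of the 6 genes, against 3.44%. The percentages count single promoters, whereas Il15ra and Il33 had 2 entries each and so more chances of a match. All are matches of letters in a window and not shown binding sites.

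All 8 endothelial marker genes were detected in every library, with a summed level between 4879 and 6030 CPM (UMIs of a gene per 1000000 UMIs of a cell, averaged over cells). Pecam1 is among the 8, and its detection is fixed by the gate. Gate cells numbered 570 to 1443 per library. The median cell held 9474.5 to 14453.5 unique molecular identifiers (UMIs) in 7 libraries and 3038 in implanted cGAMP replicate 1, where 38.1% of gate cells held fewer than 2000. That library also stood apart in its summed myeloid markers (352 CPM against 53.6 to 104 in the other 7) and epithelial markers (730 CPM against 86.4 to 506). The sum of lymphoid markers was 26.6 and 14.3 CPM in implanted cGAMP tumors and at most 4.06 CPM in the other 6 libraries. The part of these cells in the responses of implanted tumors was not tested. With cells of at least 2000 UMIs alone, the same cytokine genes were called in each of the 5 comparisons below. Mural and fibroblast markers summed to 421 to 669 CPM in 3 of the 4 spontaneous libraries and to 81.4 to 203 CPM in the remaining 5. In spontaneous tumors the sum was 81.4 and 421 CPM with PBS and 669 and 540 CPM with cGAMP. The part of these cells in the spontaneous response and in the differences between models was not tested. Of all barcodes, 7 occurred in more than 1 library.

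To ask how the cytokine genes responded to STING activation in each tumor model, the level of a library was taken as the mean CPM over its gate cells and compared with limma on log2(CPM + 1). Of the 9 genes, 7 reached 5 CPM in at least 2 libraries and were tested, while Il1b and Lif did not. In implanted tumors 6 of the 7 tested genes rose with cGAMP (Il6, Csf1, Csf3, Il15, Il15ra and Il33) and none fell, where 24.9% of all 10425 tested genes were called, 8.56% rising and 16.4% falling. Il33 passed the filter only through the implanted cGAMP libraries (8.44 and 23.0 CPM). Its place in this count and in the medians below rests on that group. In spontaneous tumors 3 rose (Il6, Csf1 and Il15) and none fell, where 12.7% of all tested genes were called, 5.05% rising and 7.67% falling. The median log2 fold change of the 7 was 1.18 in implanted tumors, against -0.10 over all tested genes, and 0.72 in spontaneous tumors, against -0.10. None of the 7 passed the test of the difference between the models' responses, for which the background was 0.624% of genes (0.192% with a positive and 0.432% with a negative difference, implanted minus spontaneous). At an unadjusted p under 0.05 the 3 genes Csf3, Il33 and Il15ra passed, as did 13.3% of all genes. The split of all calls depended on the scaling: 892 rose and 1707 fell in implanted tumors and 526 rose and 800 fell in spontaneous tumors, against 1185 and 1088, and 667 and 359, under median-of-ratios scaling, where the same cytokine genes rose and Il15ra passed as well in spontaneous tumors. A level averaged over the gate cannot tell a larger share of a cell class from more RNA per cell.

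**Figure D1:**
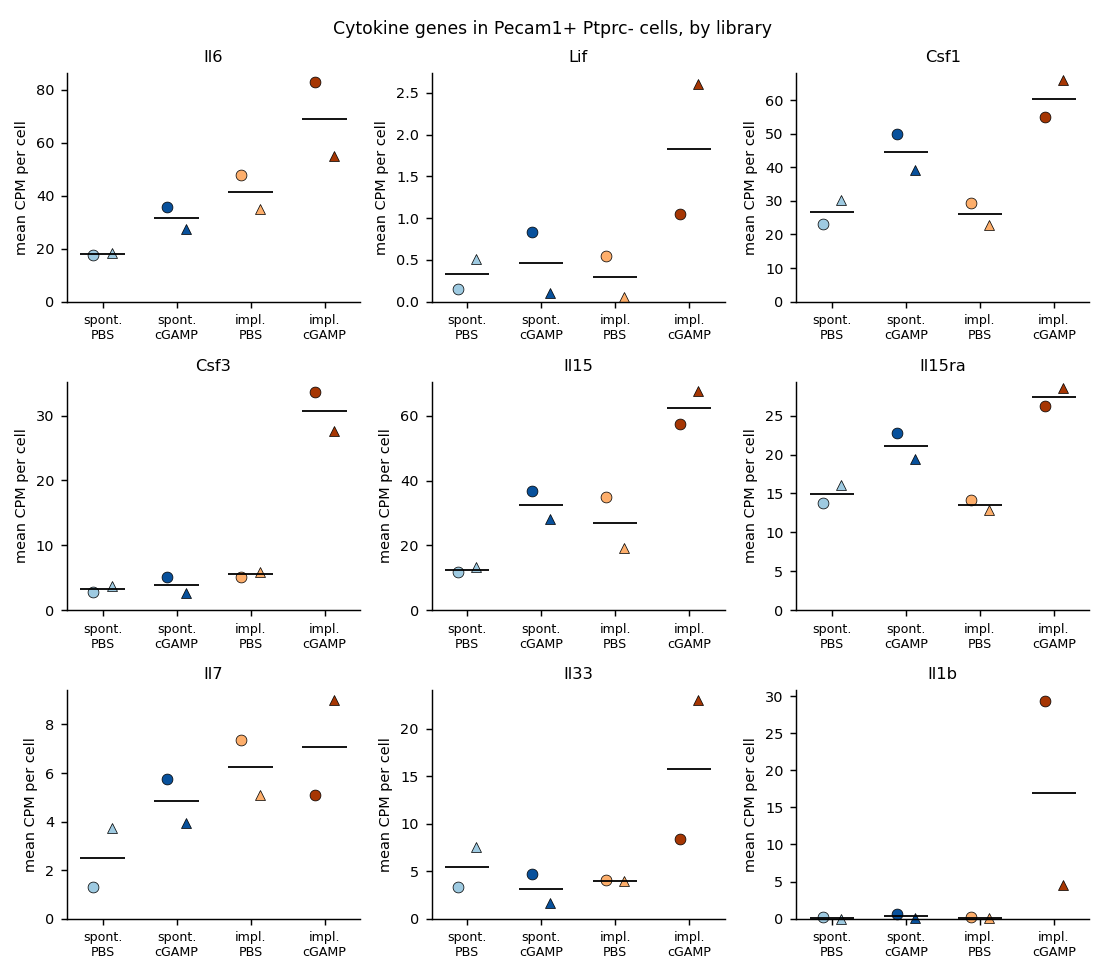
Mean CPM per gate cell (y axis, linear from 0) of each cytokine gene in the 4 groups, with a circle for replicate 1, a triangle for replicate 2 and a line at the group mean. Il15 and Csf1 were higher in both cGAMP libraries than in both PBS libraries of the same model. So were 18.7% of all tested genes in spontaneous and 21.4% in implanted tumors. Csf3 stood at 33.7 and 27.7 CPM in implanted cGAMP tumors and at or below 5.92 CPM in the other 6 libraries.

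**Figure D2:**
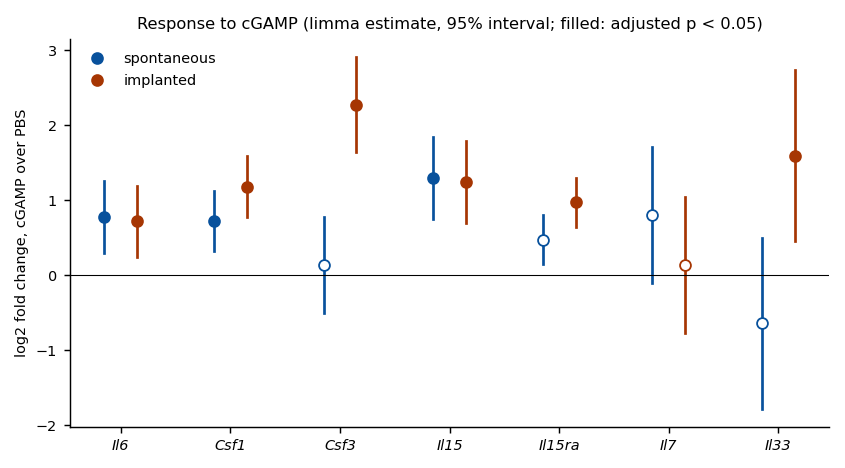
Log2 fold change of cGAMP over PBS (y axis) with its 95% interval for the 7 tested genes in spontaneous and implanted tumors, filled where the adjusted p was under 0.05. The intervals of Csf3 in the models do not overlap, those of Il6 and Il15 nearly coincide.

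Il6, the gp130 ligand that drives acute-phase and T-cell responses, lies on chromosome 5 (GRCm38, 30013114 to 30019981, + strand). It stood at 17.7 and 18.3 CPM in spontaneous PBS tumors and at 35.9 and 27.6 CPM after cGAMP. In implanted tumors it stood at 47.7 and 34.8 CPM with PBS and at 82.9 and 54.9 CPM after cGAMP. Within each model the cGAMP libraries lay above the PBS libraries without overlap, as did 18.7% of all tested genes in spontaneous and 21.4% in implanted tumors. The log2 fold change was 0.77 ± 0.21 (SE, adjusted p = 0.0435) in spontaneous and 0.72 ± 0.21 (adjusted p = 0.0352) in implanted tumors, both close to the threshold. The spontaneous call was lost without any 1 of the 4 spontaneous libraries (adjusted p between 0.0785 and 0.240), and the implanted call without spontaneous PBS replicate 1 (0.0526) or 2 (0.0520), implanted PBS replicate 2 (0.236) or implanted cGAMP replicate 1 (0.171). Both were lost in the fits without the proliferative-like or the deepest cells (adjusted p between 0.0544 and 0.0640), where the fold changes were 0.73 and 0.74 in spontaneous and 0.63 and 0.68 in implanted tumors. The responses of the models differed by -0.06 (95% interval -0.73 to 0.62). Il6 was also higher in implanted than in spontaneous tumors, by 1.14 ± 0.21 with PBS (adjusted p = 0.0133) and by 1.08 ± 0.21 with cGAMP (adjusted p = 0.0122). The first was lost without spontaneous PBS replicate 1 (0.0604) or 2 (0.0893) or implanted PBS replicate 1 (0.107), the second without spontaneous cGAMP replicate 2 (0.114).

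Lif, the other gp130 ligand (chromosome 11, 4257557 to 4272514, + strand), was near the limit of detection. The whole gate held 77 Lif UMIs in 45 cells, and 51.9% of them came from 10 cells. Its level was 0.15 and 0.50 CPM in spontaneous PBS, 0.83 and 0.10 CPM in spontaneous cGAMP, 0.54 and 0.053 CPM in implanted PBS and 1.05 and 2.61 CPM in implanted cGAMP tumors. When genes at any level were tested, the implanted response was 1.10 ± 0.37 with an adjusted p of 0.115.

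Csf1, which sustains macrophages (chromosome 3, 107741048 to 107760469, - strand), stood at 23.2 and 30.3 CPM in spontaneous PBS and at 49.96 and 39.3 CPM in spontaneous cGAMP tumors. In implanted tumors it stood at 29.5 and 22.9 CPM with PBS and at 55.1 and 65.9 CPM with cGAMP. It rose by 0.72 ± 0.18 on the log2 scale in spontaneous (adjusted p = 0.0309) and by 1.18 ± 0.18 in implanted tumors (adjusted p = 0.00158). Its cGAMP libraries lay above its PBS libraries in both models, as for 18.7% of all tested genes in spontaneous and 21.4% in implanted tumors. The implanted call held in all 8 fits without 1 library, while the spontaneous call was lost without spontaneous PBS replicate 1 (adjusted p = 0.180), spontaneous cGAMP replicate 1 (0.195) or spontaneous cGAMP replicate 2 (0.0556). The PBS groups of the models differed by -0.03 (95% interval -0.43 to 0.38).

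Csf3, the neutrophil growth factor (chromosome 11, 98701263 to 98703629, + strand), gave the largest fold change among the 7 genes. It stood at 2.81 and 3.80 CPM in spontaneous PBS, 5.12 and 2.59 CPM in spontaneous cGAMP and 5.15 and 5.92 CPM in implanted PBS tumors, 3 groups with overlapping or nearly touching values. In implanted cGAMP tumors it stood at 33.7 and 27.7 CPM. The log2 fold change was 2.27 ± 0.28 (adjusted p = 0.000530) in implanted tumors and 0.13 ± 0.28 (adjusted p = 0.800) in spontaneous tumors. The difference of the responses was 2.14 ± 0.40 and missed the threshold (adjusted p = 0.0536), ranging from 0.0340 to 0.212 over the alternatives. Across all gate cells 258 cells held the 1237 Csf3 UMIs, and 10 cells held 29.3% of them. Cells with transcripts of 2 or more of 12 myeloid marker genes, 8.61% of the gate, held 35.7% of the Csf3 UMIs, and without them the same 6 genes were called in implanted and the same 3 in spontaneous tumors.

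Il15 (chromosome 8, 82331632 to 82403222, - strand) rose in both models. It stood at 11.7 and 13.3 CPM in spontaneous PBS and at 36.8 and 28.2 CPM after cGAMP, and at 34.8 and 19.1 CPM in implanted PBS and at 57.4 and 67.7 CPM after cGAMP. The log2 fold changes of 1.30 ± 0.24 (adjusted p = 0.00831) and 1.24 ± 0.24 (adjusted p = 0.00552) differed by -0.06 (95% interval -0.83 to 0.71). Il15 was higher in implanted than in spontaneous tumors, by 0.99 ± 0.24 with PBS (adjusted p = 0.0385) and by 0.93 ± 0.24 with cGAMP (adjusted p = 0.0337). The PBS call was lost in 5 of 8 fits without 1 library, namely without any spontaneous library (adjusted p between 0.0596 and 0.143) or implanted PBS replicate 1 (0.198), and the cGAMP call in 4 of 8, without any cGAMP library (between 0.0534 and 0.221). The spontaneous response was lost without spontaneous PBS replicate 1 (0.0639) or spontaneous cGAMP replicate 1 (0.0875).

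Il15ra, the chain that presents Il15 in trans (chromosome 2, 11705290 to 11734317, + strand), varied less. It stood at 13.7 and 16.1 CPM in spontaneous PBS, 22.8 and 19.4 CPM in spontaneous cGAMP, 14.2 and 12.8 CPM in implanted PBS and 26.2 and 28.6 CPM in implanted cGAMP tumors. The cGAMP libraries thus lay above the PBS libraries in both models. The same held for 18.7% of all tested genes in spontaneous and 21.4% in implanted tumors. It rose by 0.97 ± 0.15 in implanted tumors (adjusted p = 0.00149). In spontaneous tumors the change was 0.47 ± 0.15 (adjusted p = 0.0633), which passed the threshold under median-of-ratios scaling (adjusted p = 0.0398) with UMIs summed per library (adjusted p = 0.0263) and without lymphatic-like cells (adjusted p = 0.0493).

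Il7 (chromosome 3, 7569994 to 7613760, - strand), which overlaps Gm16685 on the opposite strand, was low in the gate as a whole. It stood at 1.32 and 3.72 CPM in spontaneous PBS, 5.77 and 3.93 CPM in spontaneous cGAMP, 7.36 and 5.11 CPM in implanted PBS and 5.10 and 9.02 CPM in implanted cGAMP tumors. It passed the test in none of the comparisons, with a cGAMP response of 0.80 (95% interval -0.10 to 1.71) in spontaneous and of 0.13 (95% interval -0.78 to 1.04) in implanted tumors.

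Il33, an alarmin stored in the nucleus (chromosome 19, 29925114 to 29960718, + strand), stood at 3.31 and 7.56 CPM in spontaneous PBS, 4.67 and 1.66 CPM in spontaneous cGAMP, 4.05 and 3.94 CPM in implanted PBS and 8.44 and 23.0 CPM in implanted cGAMP tumors. The implanted cGAMP libraries were the highest of the 8 but lay far apart, and Il33 passed the filter only through them. The rise in implanted tumors was 1.59 ± 0.51 (adjusted p = 0.0471), and the call was lost without implanted PBS replicate 1 (adjusted p = 0.145) or 2 (0.170) or implanted cGAMP replicate 2 (0.248), and in 6 of 11 other alternatives, among them the fit with UMIs summed per library (adjusted p = 0.0793) and the replicate block (adjusted p = 0.0553). After removal of the lymphatic-like cells described below, which were 11.9% and 11.1% of the gate in implanted cGAMP tumors and 2.92% to 5.53% in the other 6 libraries, it was 0.89 (adjusted p = 0.120). In spontaneous tumors the change was -0.64 ± 0.51 (adjusted p = 0.442). Il33 was higher in implanted than in spontaneous cGAMP tumors by 1.95 ± 0.51 (adjusted p = 0.0339), a call that was lost with summed UMIs (1.13, adjusted p = 0.218) and without spontaneous cGAMP replicate 2 (0.226), implanted PBS replicate 1 (0.0510) or 2 (0.0510) or implanted cGAMP replicate 2 (0.136).

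Il1b, the inflammasome-processed cytokine typical of myeloid cells (chromosome 2, 129364570 to 129371139, - strand, overlapped by Il1bos on the other strand), was at 0.27 and 0 CPM in spontaneous PBS, 0.68 and 0.15 CPM in spontaneous cGAMP and 0.25 and 0.034 CPM in implanted PBS tumors. It stood at 29.3 and 4.59 CPM in implanted cGAMP tumors. The first of these libraries is the one with the highest myeloid markers: Lyz2 stood at 64.2 CPM there against 0.93 to 10.2 CPM elsewhere, and S100a8 at 32.0 CPM against 1.07 to 6.84 CPM. The level of S100a9 was 11.1 and 6.80 CPM in implanted cGAMP tumors and at or below 0.89 CPM in the other 6 libraries. Of the 191 Il1b UMIs in the gate, 70.7% lay in the 8.61% of gate cells that held transcripts of 2 or more of the 12 myeloid marker genes, and a single cell held 87. For the other cytokine genes the share of UMIs in those cells ranged from 13.3% (Il33) to 35.7% (Csf3). Without those cells Il1b stood at 9.81 and 4.98 CPM in implanted cGAMP tumors and at or below 0.75 CPM in the other 6 libraries. When genes at any level were tested, the rise of Il1b in the whole gate of implanted tumors was 3.52 ± 0.71 (adjusted p = 0.0244). The cells with Ptprc, outside the gate, carried 183 and 102 CPM of Il1b in the implanted cGAMP libraries. The part of myeloid cells in the remaining gate level was not tested.

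**Figure D3:**
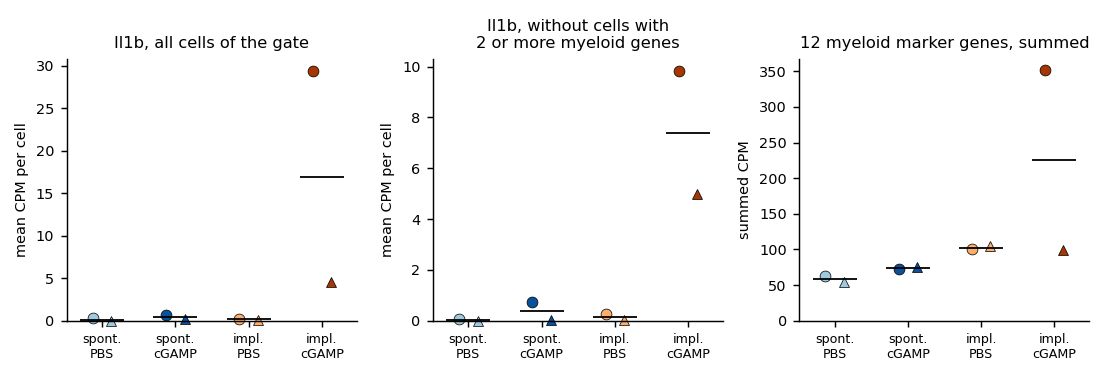
Il1b (mean CPM per cell) in all gate cells, Il1b in gate cells with fewer than 2 myeloid genes, and the summed CPM of the 12 myeloid markers, by group, with a circle for replicate 1, a triangle for replicate 2 and a line at the mean. Implanted cGAMP replicate 1 was highest in each panel, while replicate 2 of that group had Il1b above all other groups and a myeloid sum of 98.5 CPM, which Cd14 makes up by 48.8 CPM, and of 49.7 CPM without Cd14, above the other 3 groups (at most 35.9 CPM).

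To ask in which vessels the cytokine genes were expressed, gate cells were scored on marker lists of arterial, venous, tip, proliferative, AQP7+ capillary and lymphatic ECs. A cell was placed in the class of its highest score where the mean z score was at least 0.5 and exceeded the next by 0.25. The classes held 1063 arterial-like, 1140 venous-like, 847 tip-like, 349 proliferative-like, 438 AQP7+ capillary-like and 442 lymphatic-like cells, and 2715 cells were unassigned. Within 0.1 of a threshold lay 949 cells, so the classes are ranges of a score rather than types. The median score of each class on the other 5 lists was at most 0.052. In the lymphatic-like class all 7 markers were higher than in the other gate cells in each of the 8 libraries, and transcripts of Prox1, the master regulator of lymphatic identity, were found in 86.7% to 100% of its cells in 7 libraries and in 45.3% in the shallow library, against 0.952% to 6.03% of the other gate cells. The same 7 markers, Prox1 among them, placed the cells in the class. These values therefore describe the class and are no independent test of its identity.

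For 5 classes with at least 20 cells in all 8 libraries, the class was compared with the other gate cells of the same library by an exact two-sided sign-flip permutation test over libraries. The smallest p this test can give with 8 libraries is 0.00781. In 23 of the 45 pairs of gene and class the class differed at an exact p of at most 0.0234, being higher in 8 and lower in 15. Of all 52125 pairs of a tested gene and a class, 27.3% reached that p, 10.4% higher and 16.9% lower. Adjusted over all these pairs, 17 of the 35 pairs of the 7 tested cytokine genes were called, where 18.1% of all pairs were, and the smallest exact p became 0.0430. The 4 pairs with an exact p of at most 0.0234 that were lost in this way were Il33 in arterial-like and AQP7+ capillary-like cells, Il6 in venous-like cells and Csf1 in lymphatic-like cells. Lif and Il1b, below the filter, have no such value. Proliferative-like cells reached 20 cells in only 5 libraries and were not tested.

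Most Il7 UMIs lay in lymphatic-like cells. They made up 6.32% of the gate and held 82.8% of its 535 Il7 UMIs. The level in this class ranged from 36.3 to 122 CPM with a median of 82.1 CPM, whereas the highest library of any other tested class was at 2.68 CPM. The class was higher than the other cells in 8 of 8 libraries, by 5.47 ± 0.61 on the log2 scale (SD, n = 8, exact permutation p = 0.00781, adjusted p = 0.0430). Each of the other 4 classes was lower than its comparison cells, which included the lymphatic-like cells. Their median levels lay between 0 CPM (AQP7+ capillary-like) and 0.69 CPM (venous-like), against 1.01 CPM in unassigned cells. With every cell thinned to 2000 UMIs, 12.6% of lymphatic-like cells (Wilson 95% interval 9.56% to 16.5%) held an Il7 UMI, against 0 of 764 tip-like cells, which at this thinned depth allows a share of cells with a UMI of up to 0.393%. The median depths of these classes before thinning were 11320.5 and 14008 UMIs, and the unthinned shares 41.4% and 1.53%. Among 41 epithelial-like cells without Pecam1 or Ptprc, 2 held an Il7 UMI (4.88%, interval 1.35% to 16.1%, median depth before thinning and depth filter 1898 UMIs), too few to bound the background closely. These intervals and limits cover counting error only.

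Il33, Lif and Il15ra were also highest in lymphatic-like cells. This class held 66.5% of the Il33 UMIs and 70.1% of the Lif UMIs. Il33 ranged from 10.5 to 146 CPM in it and was higher than in the other cells in 8 of 8 libraries, by 3.66 ± 1.48 (SD, n = 8, exact permutation, adjusted p = 0.0430). Lif ranged from 1.28 to 22.4 CPM and was higher in 8 of 8 libraries, by 1.97 ± 1.11 (SD, n = 8, exact permutation p = 0.00781). This rests on few UMIs. The whole gate held 2 and 3 Lif UMIs in spontaneous PBS and 3 and 1 in implanted PBS libraries. After cGAMP it held 9 and 3 in spontaneous and 20 and 36 in implanted libraries. Il15ra ranged from 21.6 to 93.6 CPM and was higher in 8 of 8, by 1.23 ± 0.52 (SD, n = 8, exact permutation, adjusted p = 0.0430). The class made up 11.9% and 11.1% of the gate in implanted cGAMP tumors. In spontaneous tumors it made up 2.92% and 4.83% with PBS and 4.55% and 2.95% with cGAMP. Without the class, the responses of implanted tumors were 0.69 for Il15ra (adjusted p = 0.00939) and 1.01 for Csf1 (adjusted p = 0.000932). Those of spontaneous tumors were then 0.53 for Il15ra (adjusted p = 0.0493) and 1.09 for Csf1 (adjusted p = 0.000953). For the whole gate the Csf1 values were 0.72 (spontaneous tumors) and 1.18 (implanted tumors). The difference of these whole-gate Csf1 responses, 0.46, did not pass the limma test (adjusted p = 0.467), and the part of the class in it was not tested. For Lif the part of the share was not tested.

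Lymphatic-like cells carried little Il6 and Il15. Il6 had no UMI in this class in 5 of the 8 libraries and at most 12.5 CPM in the others, and lay below the other gate cells by 4.18 ± 0.96 in 8 of 8 libraries. Il15 ranged from 0 to 20.4 CPM and lay below by 2.72 ± 0.90, also in 8 of 8 (SD, n = 8, exact permutation, adjusted p = 0.0430 for both). Il15ra, which presents Il15, thus had its highest class median (39.6 CPM) in the class where Il15 had its lowest (3.02 CPM).

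Csf3 was a venous-like transcript. Venous-like cells were 16.3% of the gate and held 76.9% of its Csf3 UMIs. The level in the class ranged from 6.20 to 248 CPM, and it exceeded that of the other cells in 8 of 8 libraries, by 3.29 ± 1.05 (SD, n = 8, exact permutation, adjusted p = 0.0430). Arterial-, tip-, AQP7+ capillary- and lymphatic-like cells each lay below the other gate cells in 8 of 8 libraries, but those other cells included the venous-like class. Median levels in these classes lay between 0 CPM (lymphatic-like) and 0.64 CPM (tip-like), against 2.72 CPM in unassigned cells. After thinning to 2000 UMIs, 6.69% of venous-like cells (Wilson 95% interval 5.34% to 8.34%) and 0.0993% of arterial-like cells (0.0175% to 0.560%) held a Csf3 UMI, the unthinned shares being 14.8% and 0.564% at median depths of 13572.5 and 10561 UMIs.

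Il6 and Csf1 were spread more widely. Il6 was higher in venous-like cells in 7 of 8 libraries, by 1.08 ± 0.68 (SD, n = 8, exact permutation p = 0.0156, adjusted p = 0.0653), and this class held 36.5% of its UMIs, while it was lower in tip-like cells in 8 of 8 libraries, by 1.29 ± 0.89 (exact permutation, adjusted p = 0.0430). Csf1 was higher in venous-like cells in 8 of 8 libraries, by 0.61 ± 0.52 (exact permutation, adjusted p = 0.0430), and in lymphatic-like cells in 7 of 8, by 1.60 ± 1.47 (SD, n = 8, exact permutation p = 0.0234, adjusted p = 0.0858). Il15 differed from the other cells in the lymphatic-like class alone among the 5 tested classes, and Il1b in none of them.

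**Figure D4:**
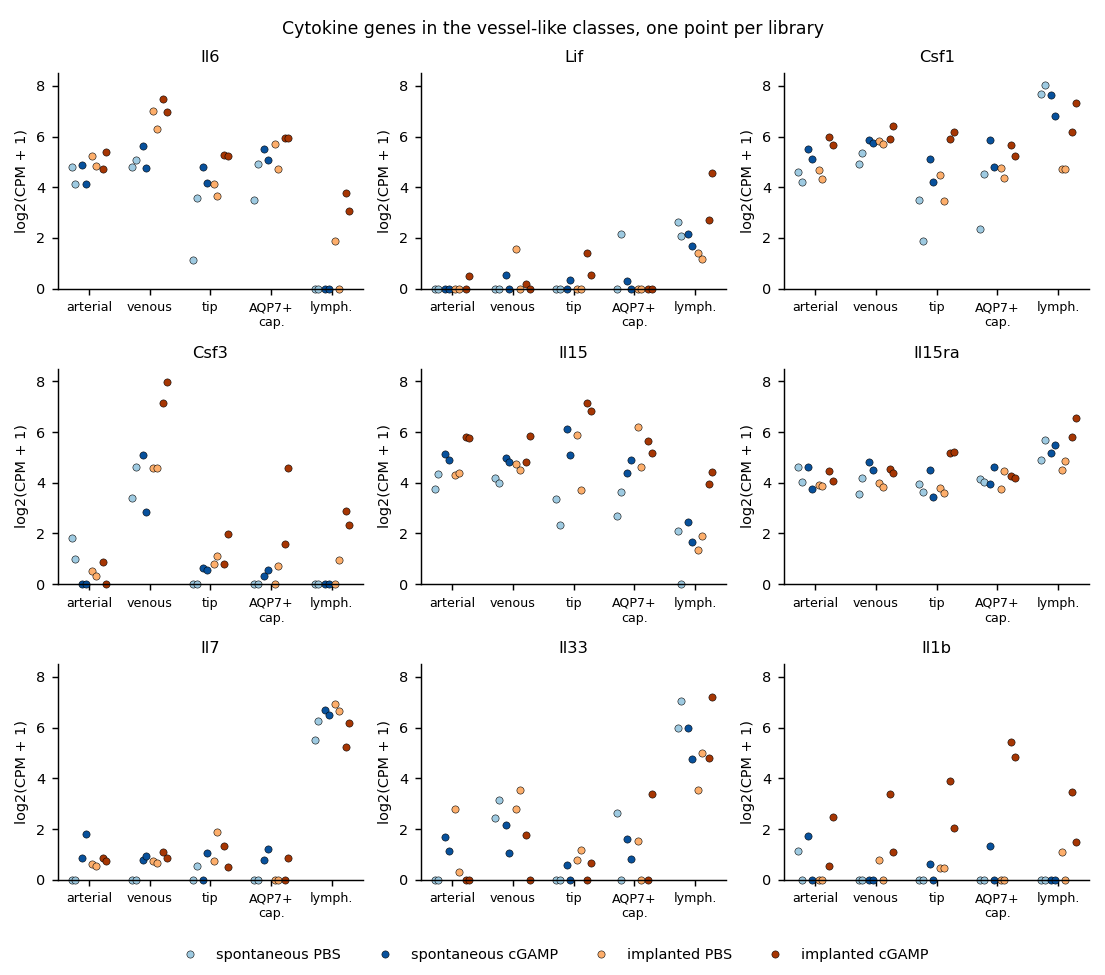
Log2(CPM + 1) of each cytokine gene (y axis) in 5 vessel-like classes (x axis), 1 point per library, coloured by group. Il7, Il33 and Lif were highest in lymphatic-like cells, Csf3 in venous-like cells, and Il6 lay near 0 in lymphatic-like cells of spontaneous tumors.

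Responses within a class were compared with the same limma design on the cells of that class. The markers that define the classes moved with cGAMP themselves: in the whole gate of implanted tumors 4 of 6 venous markers fell, 4 of 8 tip markers rose and 3 fell, and 3 of 7 lymphatic markers rose, so that the cells placed in a class may differ between PBS and cGAMP. This was not tested.

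In venous-like cells Csf3 stood at 23.0 and 23.2 CPM in implanted PBS and at 141 and 248 CPM in implanted cGAMP tumors, the second value resting on 38 cells. In spontaneous tumors it stood at 9.53 and 23.7 CPM with PBS and at 33.0 and 6.20 CPM with cGAMP, values that overlapped. Csf3 rose by 2.97 ± 0.55 in implanted tumors (SE, limma, adjusted p = 0.00326, 11.7% of 10286 genes called), a call that held in all 8 fits without 1 library. The difference from the spontaneous response was 3.01 ± 0.78 (adjusted p = 0.101, 1.03% of genes called). Il6 in these cells stood at 26.7 and 32.9 CPM in spontaneous PBS, 48.6 and 26.4 CPM in spontaneous cGAMP, 126 and 77.7 CPM in implanted PBS and 180 and 125 CPM in implanted cGAMP tumors, and so separated by model. It was higher in implanted tumors by 1.71 ± 0.29 with PBS (adjusted p = 0.00169, 7.18% of genes called) and by 2.04 ± 0.29 with cGAMP (adjusted p = 0.000637, 14.5% called), while its cGAMP response passed the test in neither model within this class (adjusted p = 0.694 and 0.214, with 4.77% of genes called in spontaneous tumors). Il33 in venous-like cells stood at 5.92 and 10.7 CPM in implanted PBS and at 2.43 and 0 CPM in implanted cGAMP tumors, the last value resting on 38 cells. The change was -2.28 (95% interval -3.80 to -0.76, adjusted p = 0.0520) and so of the opposite sign to that in the gate. In lymphatic-like cells the Il33 change was 1.75 (95% interval 0.22 to 3.27, adjusted p = 0.331) in implanted and -1.16 (95% interval -2.68 to 0.37, adjusted p = 0.494) in spontaneous tumors.

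Tip-like cells, the leading cells of vessel sprouts, carried an Il15 response in both models. Il15 stood at 9.28 and 4.11 CPM in spontaneous PBS and at 69.0 and 33.5 CPM in spontaneous cGAMP, and at 58.0 and 12.1 CPM in implanted PBS and at 141 and 113 CPM in implanted cGAMP tumors. The PBS libraries of implanted tumors lay far apart. It rose by 2.76 ± 0.53 in spontaneous (adjusted p = 0.00248, 5.89% of 10171 genes called) and by 2.20 ± 0.53 in implanted tumors (adjusted p = 0.00986, 13.4% called), calls that held in 7 of 8 and 5 of 8 fits without 1 library. Csf1 rose in tip-like cells of both models, by 1.97 ± 0.50 (adjusted p = 0.0228) and 2.07 ± 0.50 (adjusted p = 0.0103), Il15ra in implanted tumors by 1.48 ± 0.40 (adjusted p = 0.0203) and Il6 in spontaneous tumors by 2.13 ± 0.58 (adjusted p = 0.0344). The last of these was lost in 5 of 8 fits without 1 library, and Il15ra in 4 of 8. None of the 4 cytokine genes tested in tip-like cells differed between the models' responses (1.05% of genes called) or between the models with PBS (1.85%) or cGAMP (4.61%).

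In lymphatic-like cells Csf1 separated the models under PBS. It stood at 203 and 262 CPM in spontaneous and at 25.2 and 25.3 CPM in implanted PBS tumors, and fell by 3.14 ± 0.38 on the log2 scale from spontaneous to implanted tumors (adjusted p = 0.00125, 1.15% of 11105 genes called, called in all 8 fits without 1 library). With cGAMP it stood at 198 and 113 CPM in spontaneous and at 72.1 and 158 CPM in implanted tumors. It rose with cGAMP in implanted tumors by 2.04 ± 0.38 (adjusted p = 0.0116, 2.17% called, held in 5 of 8 fits without 1 library) and not in spontaneous tumors, where the change was -0.62 (95% interval -1.43 to 0.19, 1.86% of genes called). The difference of these responses was 2.66 ± 0.53 with an adjusted p of 0.0542 (0.351% of genes called). Il7 in the same cells stood at 45.1 and 75.4 CPM in spontaneous PBS, 102 and 88.7 CPM in spontaneous cGAMP, 122 and 100.4 CPM in implanted PBS and 36.3 and 72.1 CPM in implanted cGAMP tumors, and neither change passed the test. The class held 20 to 63 cells in 7 libraries and 172 in implanted cGAMP replicate 1, where the median cell held 2278 UMIs.

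**Figure D5:**
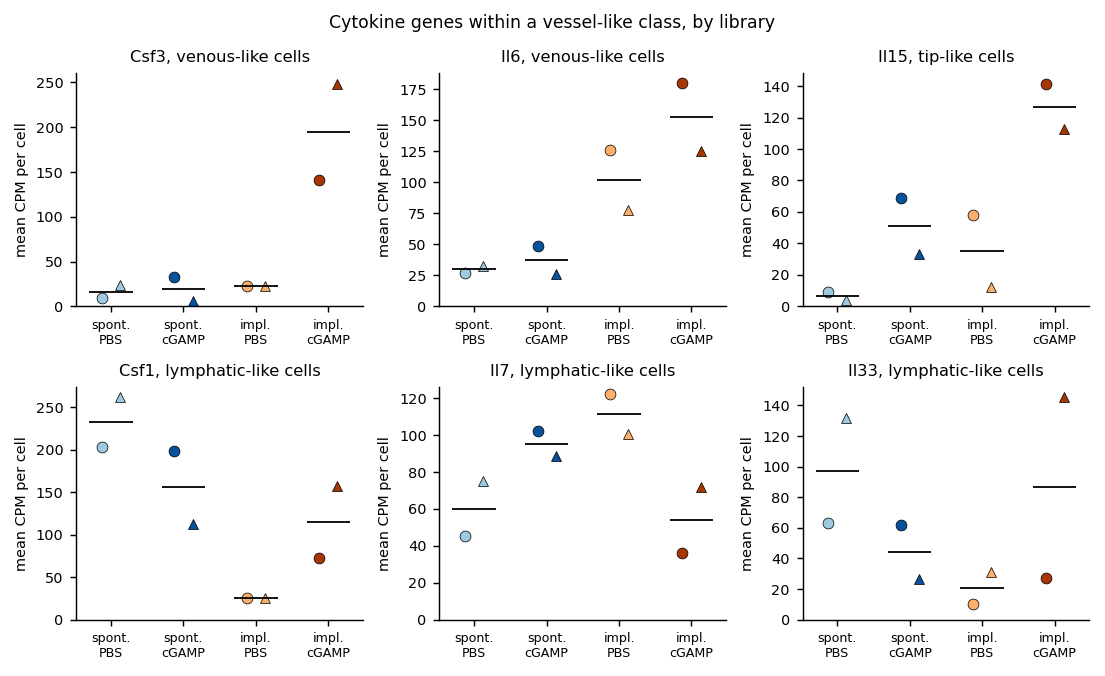
Mean CPM per cell (y axis, linear from 0) of Csf3 and Il6 in venous-like cells, Il15 in tip-like cells and Csf1, Il7 and Il33 in lymphatic-like cells, with a circle for replicate 1, a triangle for replicate 2 and a line at the group mean. Csf3 in venous-like cells was above 140 CPM in implanted cGAMP tumors alone, and Csf1 in lymphatic-like cells was near 25 CPM in both implanted PBS libraries.

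Of 12 receptor genes for these cytokines, 6 passed the filter. After cGAMP, 1 rose and 2 fell in spontaneous tumors, and 2 rose and 3 fell in implanted tumors, where 12.7% and 24.9% of all tested genes were called. Il6ra, the ligand-binding chain for Il6, rose in both, by 0.84 ± 0.22 (adjusted p = 0.0394) and 1.14 ± 0.22 (adjusted p = 0.00556), and Il2rg, the common gamma chain used by Il15 and Il7, rose in implanted tumors by 0.96 ± 0.14 (adjusted p = 0.00107). Lifr, the receptor for Lif, fell by 0.74 ± 0.11 on the log2 scale in spontaneous (adjusted p = 0.00207) and by 0.79 ± 0.11 in implanted tumors (adjusted p = 0.000806), and Il1r1, the receptor for Il1b, fell by 0.75 ± 0.18 and 0.84 ± 0.18 (adjusted p = 0.0239 and 0.00767). Csf1r, Csf3r, Il7r, Il1rl1, Il2rb and Il1r2 did not reach the filter.

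Of 19 other cytokine genes, 9 passed the filter, 4 of them (Il27, Tnf, Clcf1 and Il34) only through the group in which they were highest. In spontaneous tumors 2 rose and 1 fell with cGAMP, and in implanted tumors 3 rose and 1 fell, against the same shares of all tested genes. Tnfsf10, the death ligand TRAIL, rose in both models, by 1.41 ± 0.16 (adjusted p = 0.000445) and 0.93 ± 0.16 (adjusted p = 0.00318). Il27, a gp130-using cytokine, stood at 0.64 and 0.84 CPM in spontaneous cGAMP tumors, at 6.56 and 5.26 CPM in implanted cGAMP tumors and at or below 0.050 CPM with PBS. Tnf stood at 7.85 and 9.62 CPM in implanted cGAMP tumors and between 1.57 and 4.25 CPM in the other 6 libraries. These 2 genes are among the 3 that rose in implanted tumors, and their passing of the filter rests on that group. Flt3l, a dendritic cell growth factor, rose by 0.78 ± 0.22 in spontaneous tumors (adjusted p = 0.0486), and Kitl, the ligand of Kit, fell by 0.74 ± 0.12 on the log2 scale there (adjusted p = 0.00457) and by 0.70 ± 0.12 in implanted tumors (adjusted p = 0.00319).

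Of 11 listed genes that process or restrain cytokines, 10 were tested. After cGAMP 4 rose in spontaneous and 7 in implanted tumors and none fell, where 5.05% and 8.56% of all tested genes rose. Il18bp, which neutralizes Il18, stood at 8.98 and 8.69 CPM in spontaneous PBS and at 125 and 114 CPM after cGAMP, a rise of 3.61 ± 0.19 (adjusted p = 1.85e-06), and rose by 2.53 ± 0.19 in implanted tumors (adjusted p = 3.19e-05). Socs1, the feedback inhibitor of cytokine receptor signaling, rose by 2.01 ± 0.16 and 1.42 ± 0.16 (adjusted p = 2.63e-05 and 0.000252). Casp4 rose in spontaneous tumors by 1.34 ± 0.13 (adjusted p = 0.000108), and Tnfaip3, an NF-kB inhibitor, in implanted tumors by 1.03 ± 0.13 (adjusted p = 0.000681). In PBS tumors Il18bp, Socs1 and Casp4 were already higher in implanted than in spontaneous tumors, by 1.63 ± 0.19, 1.35 ± 0.16 and 1.07 ± 0.13 (adjusted p = 0.00121, 0.00113 and 0.00129).

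Between the models without cGAMP, 2 of the 7 cytokine genes were higher in implanted tumors (Il6 and Il15) and none lower, where 7.84% of all tested genes were called, 3.37% higher and 4.47% lower. With cGAMP 4 were higher (Il6, Il15, Csf3 and Il33) and none lower, where 14.4% were called, 5.35% higher and 9.02% lower. Il33 passed the filter only through the implanted cGAMP libraries. The other listed cytokines gave 1 higher and 1 lower gene with PBS, Tnfsf10 at 0.88 ± 0.16 (adjusted p = 0.0128) and Il16 at -0.99 ± 0.19 (adjusted p = 0.0165), and 2 higher and 2 lower with cGAMP. Of these 4, Il27, Tnf and Il34 passed the filter only through the higher group, Il34 at 7.63 and 6.31 CPM in spontaneous cGAMP tumors and under 5 CPM elsewhere. Csf3 was higher by 2.75 ± 0.28 (adjusted p = 0.00121), a call that held in every alternative.

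Over the 8 libraries, the genes whose levels followed each cytokine gene most closely were Ece1, Hdc and Lap3 for Il6 (Pearson's r of log2 levels 0.99, 0.98 and 0.98), Rnf19b, AA467197 and Irf8 for Il15 (0.998, 0.987 and 0.983) and Plaur, Kctd11 and Dapk3 for Csf3 (0.98, 0.98 and 0.97). Il15ra and Csf1 were among each other's 3 closest genes (0.99). Il15ra was also followed by 1600014C10Rik and Sqstm1 (0.99 for both), and Csf1 by D17Wsu92e and Dcp2 (0.99 and 0.98). For Il33 the closest were Polr3b, Gm26917 and Trappc6b (0.96, 0.95 and 0.95), and for Il7 Eif4e3, Thoc5 and Pola2 (0.97, 0.93 and 0.92). These correlations describe 8 libraries that share 4 groups and differ in depth.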

How the data were processed

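Per the labels and the study's methods, live CD45-/CD31+ cells were run on 10x Genomics 3' chemistry, aligned to mm10 with Cell Ranger 3.0.0. The authors dropped genes found in under 3 cells, cells in which under 500 genes were seen, and cells whose mitochondrial share passed 10%, and then normalized with Seurat 3.1.1. The deposited values are on a natural log scale, ln(1 + 10000 × UMIs / total UMIs of the cell). UMIs were recovered by dividing the unlogged values of a cell by their smallest step, which gave whole numbers within 0.01 for 100% of values (97421522 UMIs in all). Since the deposited unit is a log value and not counts, limma (3.58.1, R 4.3.3) was used rather than a count model: eBayes with trend on log2(mean CPM over cells + 1), the 8 libraries in 1 fit with 4 groups, genes at 5 CPM or more in at least 2 libraries, Benjamini-Hochberg adjustment over all of them, and a call at an adjusted p under 0.05. SE and 95% intervals are limma's.

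No doublet caller was run and no removal of doublets is stated in the sources used here. The gate dropped 202 cells with Ptprc, and an alternative dropped the 5% of cells with the most UMIs. Vessel classes, tests and motif searches were made in Python 3.11.15 with SciPy 1.17.1, and cells were thinned with seed 1. Replicate numbers did not pair the libraries (correlations of deviations between -0.21 and 0.12). The fits were tested on simulated data. The alternatives covered the scaling, the pseudocount, the filter, the cells kept, each library left out and a replicate block. The cytokine genes, marker lists and pathway lists were chosen with earlier results of these data known. Text names all 9 cytokine genes, up to 3 called genes of each pathway list per comparison with the largest change, and the 3 genes most correlated with each tested cytokine gene among those at 10 CPM or more.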

Additional observations from a re-analysis of the deposited data

Results flagged for a closer look

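Within lymphatic-like cells 2 genes moved in opposite directions in the models in every library. Il7 was higher in both spontaneous cGAMP libraries than in both PBS libraries and lower in both implanted cGAMP libraries than in both PBS libraries, with a difference of the responses of -1.79 on the log2 scale (limma, adjusted p = 0.252). Csf1 was lower in both spontaneous and higher in both implanted cGAMP libraries, with a difference of 2.66 (adjusted p = 0.0542). Neither difference passed the threshold, and implanted cGAMP replicate 1, whose lymphatic-like cells held a median of 2278 UMIs, is one of the libraries behind both. Both genes were picked by this pattern among the cytokine genes in the gate and in venous-, tip- and lymphatic-like cells. The share of all genes with the pattern was not counted, so it cannot be told from the background.

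Cells outside the gate, which entered only the alternative on all deposited cells, also carried cytokine transcripts. Il6 averaged 53.8 CPM in those of the spontaneous cGAMP libraries (57.5 and 50.1 CPM, from 81 and 103 cells), against 0.17 and 8.54 CPM in the spontaneous PBS libraries. Il1b averaged 73.4 CPM in those of the implanted cGAMP libraries (89.9 and 56.9 CPM, from 582 and 84 cells), against 3.80 and 0 CPM with PBS, where it had 1 UMI and none. These cells are of mixed kinds, and the differences were not tested.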

How the results depend on the processing

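Of 1200 repeats of 80 gene results under the alternatives, 1100 kept their direction and their side of the threshold or stayed uncalled, 85 lost the call, 15 gained it and none of the called ones reversed. In the spontaneous response 3 cytokine genes were called, and 0 without a filter on low levels, which tested 18733 genes. The same alternative called 0 instead of 2 genes for implanted against spontaneous tumors with PBS and 1 instead of 4 with cGAMP. Without the 5% deepest cells the PBS comparison called 1 gene. The test of the difference of the responses called 1 gene (Csf3) with a pseudocount of 5 CPM and without lymphatic-like cells, an alternative added after seeing the data, and 0 otherwise. Without 1 library the counts ranged from 0 to 3 for the spontaneous response, from 4 to 6 for the implanted one, from 0 to 2 for the models with PBS, from 1 to 4 with cGAMP, and from 19 to 22 for the 23 pairs of gene and class, where 7 libraries cannot give a p under 0.0156. Adjusted over the pairs of all tested genes, an alternative added after seeing the data, 17 pairs were called, with the genes below the filter left out. The spontaneous count was 0 without spontaneous PBS replicate 1 or spontaneous cGAMP replicate 1, and 1 without spontaneous cGAMP replicate 2. The PBS count was 0 without either spontaneous PBS replicate or implanted PBS replicate 1, and 1 without either spontaneous cGAMP replicate. The cGAMP count was 1 without spontaneous cGAMP replicate 2 and 2 without implanted cGAMP replicate 2. The lone library of a group left with 1 is assumed to vary like the others. With the replicate block the calls were the same except that Il33 in implanted tumors was lost (1.59, adjusted p = 0.0553), and the block called 5 cytokine genes there. Replicate numbers share only a number. Over all genes, summing UMIs per library moved the count of calls from 1326 to 2874 in spontaneous tumors, from 817 to 1342 between models with PBS and from 65 to 105 for the difference, and no filter moved these to 790, 322 and 0 and the count between models with cGAMP from 1498 to 789. All deposited cells gave 43 for the difference. Without 1 library these counts ranged from 462 to 1835 in spontaneous and from 1270 to 2474 in implanted tumors (2599 in all 8), from 0 to 164 for the difference, from 217 to 1243 with PBS and from 179 to 1471 with cGAMP. With 2 mice per group, low genes such as Il1b, Lif and Il7 are limited by depth.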
